A study of Mus musculus with 9 samples.

Results

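The 10 miRNAs described here are best known from liver and muscle: miR-122-5p and miR-122-3p from the liver, and miR-1a-3p, miR-1b-5p, miR-133a-3p, miR-133b-3p, miR-206-3p, miR-208a-3p, miR-208b-3p and miR-499-5p, which come from hairpins known from skeletal or heart muscle. They were taken by name from a table of 1978 mature miRNAs, and all 10 were listed, of which 8 had counts high enough for a test. The libraries hold small RNA of exosomes from TCMK-1, an established line of mouse renal tubular epithelial cells from the C3H strain. The LV-NC cells carried an empty control lentivirus and were kept in normal culture. The H/R-LV-NC cells carried the same virus and went through hypoxia and reoxygenation (H/R), with 24 h under 1% O2 before 12 h under 21% O2. The H/R-LV-BMAL1 cells carried a lentivirus that expresses BMAL1, a transcription factor of the circadian clock, from the CMV promoter with a Flag tag, and went through the same H/R. All groups thus carried a virus with the EGFP and puromycin resistance genes, used at a multiplicity of infection of 100, and no group without H/R carried BMAL1. There were 3 libraries in each group. The H/R cells were in exosome-free medium, and the labels do not say whether the LV-NC cells were.

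A miRNA is cut from a hairpin precursor, and either arm of the hairpin (5p or 3p) can give the mature strand. The seed, bases 2 to 8 from the 5′ end, does most of the work of finding target mRNAs. miR-122 makes up most of the miRNA of hepatocytes. miR-1, miR-133 and miR-206 are the classical muscle miRNAs, with miR-206 mainly in skeletal muscle, and miR-208a, miR-208b and miR-499 lie in introns of myosin heavy chain genes.

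RefSeq (GRCm38.p6) sequences were used for 5 of the 10 miRNAs, those of the muscle hairpins Mir206, Mir133b, Mir208a, Mir208b and Mir499. They are shown because the most abundant of them, the pair in the same long non-coding RNA gene and the myosin group can be told apart by their seeds, which are in capitals.
mmu-miR-206-3p: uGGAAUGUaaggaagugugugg
mmu-miR-133b-3p: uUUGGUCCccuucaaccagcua
mmu-miR-208a-3p: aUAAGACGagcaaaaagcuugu
mmu-miR-208b-3p: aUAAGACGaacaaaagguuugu
mmu-miR-499-5p: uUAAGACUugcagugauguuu
miR-208a-3p and miR-208b-3p share the seed UAAGACG and differ at 3 of their 22 bases. The seed of miR-499-5p, UAAGACU, equals theirs at 6 of 7 bases. Among these 5 sequences, miR-206-3p (seed GGAAUGU) and miR-133b-3p (seed UUGGUCC) share a seed with none of the others. Of the 1679 listed miRNAs with a RefSeq sequence, miR-6349 and miR-6382 have the seed of miR-206-3p as well. This search did not cover miR-122-5p, miR-122-3p, miR-1a-3p, miR-1b-5p and miR-133a-3p, which had no sequence here. A seed that one of them shares with miR-206-3p or miR-133b-3p would therefore not show.

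On the reference, miR-206-3p lies on chromosome 1 from 20679055 to 20679076 and miR-133b-3p from 20682834 to 20682855, both on the plus strand. GENCODE M21 (GRCm38) places both in exons of 1 long non-coding RNA gene, Gm28653 (20669882 to 20684298). miR-208a-3p lies on chromosome 14 from 54949072 to 54949093 in an intron of Myh6, the main myosin heavy chain gene of the adult mouse heart. miR-208b-3p lies on the same chromosome from 54975710 to 54975731 in an intron of Myh7, the myosin heavy chain gene of slow and fetal cardiac muscle. miR-499-5p lies on chromosome 2 from 155622893 to 155622913 in an intron of Myh7b. All 3 are on the strand of their host gene.

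Molecules were counted by unique molecular identifiers (UMIs), and the libraries held 980407 to 1147768 UMIs (LV-NC), 807158 to 1447040 (H/R-LV-NC) and 3357851 to 4057046 (H/R-LV-BMAL1). The libraries H/R-LV-NC 2 and, in the other H/R group, H/R-LV-BMAL1 1 stood apart from the rest, the former with the fewest UMIs and the largest TMM factor (1.72) and the latter with the widest spread around its group (SD of log2 deviations 0.753, against 0.418 to 0.547 in the others). Of the miRNAs known from kidney tubules, the 9 of the list summed to 20100 to 31135 CPM over the libraries, most of it from the miR-30 family, while miR-204-5p (mean 10.2 CPM) and miR-10b-5p (mean 26.8 CPM) were low. CPM is the count scaled to the total UMIs of its library. The 5 epithelial miRNAs of the miR-200 family were scarce, at 22.9 to 111.5 CPM in sum. The 6 blood cell miRNAs summed to 386.8 to 485.5 CPM (LV-NC), 425.7 to 539.2 (H/R-LV-NC) and 226.3 to 262.3 (H/R-LV-BMAL1). The 3 neuronal miRNAs were at 544.3 to 682.4, 505.5 to 1227 and 1140 to 5087 CPM in the same order, and the endothelial miR-126a-3p at 301.8 to 330.5, 292.4 to 442.3 and 493.5 to 771.0 CPM. These sums hide unlike members. Among the neuronal miRNAs the means were 904 CPM (miR-128-3p), 371 CPM (miR-9-5p, 7 to 10780 UMIs in a library) and 17.2 CPM (miR-124-3p). Among the blood cell miRNAs they ran from 3.21 CPM (miR-144-3p) to 205 CPM (miR-486a-5p), with miR-451a at 14.9 CPM. The smooth muscle pair miR-143-3p and miR-145a-5p had 10833 to 14973 CPM in sum over all libraries. The labels do not tell whether replicate libraries stem from different cultures. All p-values therefore rest on the spread between libraries, which may be technical. The part of these marker levels in the results was not tested. Levels in exosomes do not separate a change in the cells from a change in what the cells export.

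miR-206-3p and miR-122-5p were the only 2 of the 10 with a mean above 50 UMIs. With a mean of 2781 CPM, miR-206-3p ranked 39 among the 1978 miRNAs and lay above 97.7% to 98.1% of them in each library. miR-122-5p had a mean of 108 CPM and ranked 279. The other 8 had means of 3.56 CPM (miR-122-3p) to 27.0 CPM (miR-1b-5p), where the median miRNA of a library had 8.13 to 32.2 CPM. In each library, 5 to 8 of the 10 lay below that library's median. miR-206-3p alone took 90.8% to 96.0% of the UMIs of the 10. Muscle miRNAs other than miR-206-3p together came to 46.6 to 177.2 CPM.

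**Figure D1:**
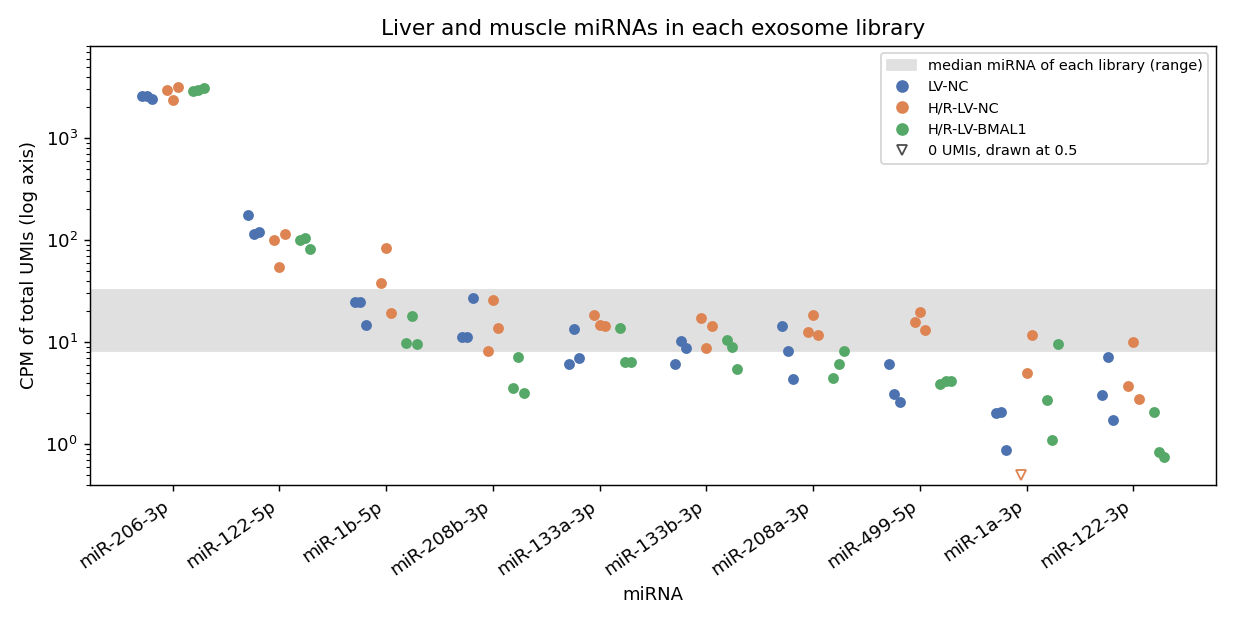
CPM of total UMIs on a log axis for the 10 miRNAs, with 1 point for each library and the groups in colour; the grey band is the range of the median miRNA over the 9 libraries (8.13 to 32.2 CPM). miR-206-3p lies at 2385 to 3171 CPM and miR-122-5p at 54.5 to 176.5 CPM, and the means of the other 8 lie in the band or below it, with miR-1b-5p above it in 2 H/R-LV-NC libraries.

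mmu-miR-206-3p, which promotes muscle differentiation, was counted at 2586, 2605 and 2430 CPM in the LV-NC libraries. The H/R-LV-NC libraries had 2932, 2385 and 3171 CPM, and the H/R-LV-BMAL1 libraries had 2885, 2949 and 3087 CPM. The H/R-LV-NC values spanned those of LV-NC, while every H/R-LV-BMAL1 value lay above every LV-NC value. On this scale the group means were 2540 ± 95.9, 2829 ± 403 and 2974 ± 104 CPM (SD, n = 3). The counts behind them were 1925 to 12525 UMIs, which gives a 95% exact binomial interval of 2280 to 2494 CPM in the shallowest library, for counting error only.

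The change of miR-206-3p depended on the scaling. TMM takes most miRNAs as unchanged between libraries, and its factors ran from 0.558 to 1.72, lowest in H/R-LV-BMAL1. Scaled by TMM, miR-206-3p had 2514, 2514 and 2274 CPM (LV-NC), 2790, 1394 and 2530 (H/R-LV-NC) and 3073, 4006 and 5534 (H/R-LV-BMAL1). Under this scaling the H/R-LV-BMAL1 libraries lay above those of both other groups. The log2 fold change was 0.91 against H/R-LV-NC (95% interval 0.21 to 1.61, edgeR adjusted p = 0.106) and 0.79 against LV-NC (95% interval 0.09 to 1.49, adjusted p = 0.176 from edgeR). Without H/R-LV-BMAL1 3 the latter was 0.49 (adjusted p = 0.411 from edgeR). Scaled to total UMIs these were 0.07 (adjusted p = 0.649 from edgeR) and 0.23 (adjusted p = 0.234 from edgeR). After H/R with the control virus the log2 fold change was -0.12 with TMM (95% interval -0.82 to 0.57) and 0.16 with total UMIs.

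mmu-miR-122-5p, which supports lipid metabolism in hepatocytes, was counted at 176.5, 115.6 and 121.1 CPM (LV-NC), 101.3, 54.5 and 115.4 CPM (H/R-LV-NC) and 101.0, 104.5 and 81.8 CPM (H/R-LV-BMAL1). All 6 H/R libraries lay below the LV-NC libraries, but the lowest LV-NC value and the highest H/R-LV-NC value differed by less than their counting error (95% exact binomial intervals 95.3 to 139 and 98.6 to 134.3 CPM). The counts were 44 to 377 UMIs. Its log2 fold change after H/R was -0.85 with TMM (95% interval -1.78 to 0.09, adjusted p = 0.645 from edgeR) and -0.60 with total UMIs (adjusted p = 0.494 from edgeR). Without the library H/R-LV-NC 2 the TMM value was -0.47. In the BMAL1 comparison (BMAL1 against control virus, both under H/R) it was 0.84 with TMM (95% interval -0.08 to 1.77, adjusted p = 0.216 from edgeR) and 0.08 with total UMIs, and 0.45 with TMM without H/R-LV-NC 2. BMAL1 under H/R against LV-NC gave 0.00 with TMM (95% interval -0.92 to 0.92) and -0.52 with total UMIs (adjusted p = 0.311 from edgeR). The listed position is chromosome 18 from 65248866 to 65248887, in the miRNA gene Mir122 and in an exon of the long non-coding RNA gene AC157910.3.

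The ratio of the 2 miRNAs within a library needs no scaling. There were 14.7, 22.5 and 20.1 UMIs of miR-206-3p for each UMI of miR-122-5p (LV-NC), 28.9, 43.8 and 27.5 (H/R-LV-NC) and 28.6, 28.2 and 37.7 (H/R-LV-BMAL1). Every H/R library thus had a higher ratio than every LV-NC library, and the H/R groups overlapped. The miR-122-5p counts behind these ratios were 44 to 377 UMIs, and the counting error of the ratio was not computed. The mean ratio (geometric) was 1.74 times that of LV-NC in H/R-LV-NC and 1.66 times in H/R-LV-BMAL1. The two-sided exact permutation p was 0.1 for each (adjusted p = 0.15 over the 3 pairs of groups), where 0.1 is the smallest p that 3 libraries against 3 allow. Both comparisons use the same LV-NC libraries. Between the H/R groups the ratio differed by a factor of 0.956 (exact permutation p = 0.8). Without LV-NC 1, which had the lowest ratio, the log2 difference between H/R-LV-NC and LV-NC was 0.62 in place of 0.80.

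**Figure D2:**
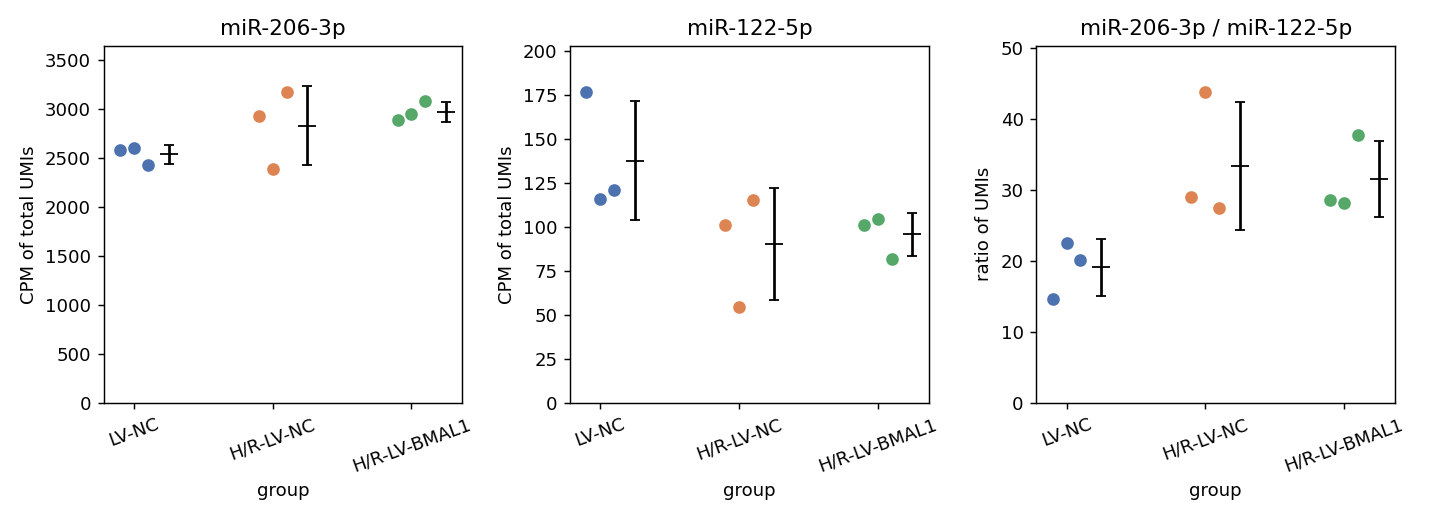
CPM of total UMIs of miR-206-3p and miR-122-5p and their UMI ratio, by group; points are libraries, and the dash with its bar is the mean and SD of 3 libraries. The ratio is 14.7 to 22.5 in LV-NC and 27.5 to 43.8 in the 6 H/R libraries.

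miR-133b-3p, which acts in muscle differentiation and lies in the same long non-coding RNA gene as miR-206-3p, did not share its abundance. Whether they share a transcript was not tested. miR-133b-3p had 6, 10 and 10 UMIs (LV-NC), 23, 7 and 21 (H/R-LV-NC) and 35, 32 and 22 (H/R-LV-BMAL1). That is 5.42 to 17.1 CPM, with the 3 groups overlapping. For each UMI of miR-133b-3p there were 171 to 569 UMIs of miR-206-3p. miR-133a-3p, a repressor of smooth muscle genes in the heart, had 6, 13 and 8 UMIs (LV-NC), 25, 12 and 21 (H/R-LV-NC) and 46, 23 and 26 (H/R-LV-BMAL1). In CPM the H/R-LV-NC libraries (14.5 to 18.6) lay above those of LV-NC (6.12 to 13.3). The nearest values differed by less than their counting error (95% exact binomial intervals 8.98 to 22.2 and 7.08 to 22.7 CPM). With TMM these groups overlapped. The log2 fold change of miR-133a-3p after H/R was 0.59 with TMM (95% interval -0.36 to 1.54) and 0.87 with total UMIs. The 2 miRNAs are known to differ only at the 3′ end, so reads could be shared between them, and the sources used here do not give how such reads were assigned. For miR-133b-3p the corresponding values were 0.46 (95% interval -0.51 to 1.43) and 0.71. With 1 library left out the TMM values ran from 0.27 (without H/R-LV-NC 1) to 1.00 (without LV-NC 2) for miR-133a-3p and from 0.077 (without H/R-LV-NC 1) to 0.81 (without H/R-LV-NC 2) for miR-133b-3p, and without LV-NC 1 they were 0.39 and 0.29. miR-133a-3p is listed on chromosome 18 from 10782913 to 10782934 on the minus strand, in the miRNA gene Mir133a-1 and in an intron of the antisense gene Mir133a-1hg. Only this position is listed, and UMIs of the same sequence from any other hairpin could not be told apart.

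miR-499-5p had the largest fold change of the 8 tested miRNAs after H/R. It regulates genes of slow muscle fibres. It was counted at 6, 3 and 3 UMIs (LV-NC), 21, 16 and 19 UMIs (H/R-LV-NC) and 13, 15 and 17 UMIs (the much deeper H/R-LV-BMAL1 libraries). In CPM these were 6.12, 3.07 and 2.61, then 15.6, 19.8 and 13.1, then 3.87, 4.16 and 4.19. Each H/R-LV-NC library lay above all libraries of the other 2 groups, with total UMIs and with TMM. The LV-NC values rest on 3 to 6 UMIs. The 95% exact binomial intervals of LV-NC 1 (2.25 to 13.3 CPM) and H/R-LV-NC 3 (7.91 to 20.5 CPM) overlapped. The log2 fold change after H/R was 1.70 with TMM (95% interval 0.69 to 2.71, unadjusted p = 0.00337 and adjusted p = 0.645 from edgeR) and 2.02 with total UMIs (adjusted p = 0.468 from edgeR). In the BMAL1 comparison it was -1.10 with TMM (95% interval -1.95 to -0.25, adjusted p = 0.106 from edgeR). It passed there with total UMIs, at -1.96 (adjusted p = 0.0164 from edgeR), where 30.9% of all tested miRNAs also passed. The H/R-LV-NC libraries enter both of these comparisons, on opposite sides. BMAL1 under H/R against LV-NC gave 0.60 with TMM (95% interval -0.44 to 1.64) and 0.06 with total UMIs. The TMM value was 1.02 without LV-NC 1, 0.35 without LV-NC 3 and 0.33 without H/R-LV-BMAL1 3.

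miR-208a-3p, which acts on the stress response of the heart, had 14, 8 and 5 UMIs (LV-NC), 17, 15 and 17 (H/R-LV-NC) and 15, 22 and 33 (H/R-LV-BMAL1). Its CPM were 4.36 to 14.3 (LV-NC), 11.7 to 18.6 (H/R-LV-NC) and 4.47 to 8.13 (H/R-LV-BMAL1), so LV-NC overlapped both H/R groups while the H/R groups were apart. The nearest values of the H/R groups had overlapping 95% exact binomial intervals (6.84 to 18.8 CPM in H/R-LV-NC 3 and 5.60 to 11.4 CPM in H/R-LV-BMAL1 3). With TMM its values in the H/R groups overlapped. Its log2 fold change in the BMAL1 comparison was -0.24 with TMM (95% interval -1.29 to 0.81) and -1.17 with total UMIs (adjusted p = 0.0755 from edgeR). miR-208b-3p had 11, 11 and 31 UMIs (LV-NC), 11, 21 and 20 (H/R-LV-NC) and 12, 26 and 13 (H/R-LV-BMAL1), which is 11.2 to 27.0, 8.19 to 26.0 and 3.20 to 7.21 CPM. Its H/R-LV-BMAL1 values lay below those of both other groups on this scale. The nearest values of the H/R groups differed by less than their counting error. Their 95% exact binomial intervals were 4.71 to 10.6 CPM (H/R-LV-BMAL1 2) and 4.09 to 14.7 CPM (H/R-LV-NC 1). With TMM its values in the H/R groups overlapped. Its log2 fold change between the H/R groups was -0.81 with TMM (95% interval -1.86 to 0.23) and -1.73 with total UMIs (adjusted p = 0.0466 from edgeR). Leaving out H/R-LV-BMAL1 1 gave a TMM value of -0.54, and leaving out H/R-LV-BMAL1 2 gave -1.26. Against LV-NC it was -1.30 with TMM (95% interval -2.35 to -0.25, adjusted p = 0.148 from edgeR), and -0.76 without LV-NC 3. The 3 listed miRNAs placed in myosin introns, of related seeds, were thus at 2.61 to 27.0 CPM, and in no library did any of them reach 50 UMIs. The other arm of Mir208a, miR-208a-5p, was more abundant than miR-208a-3p, with 13 to 74 UMIs in a library.

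**Figure D3:**
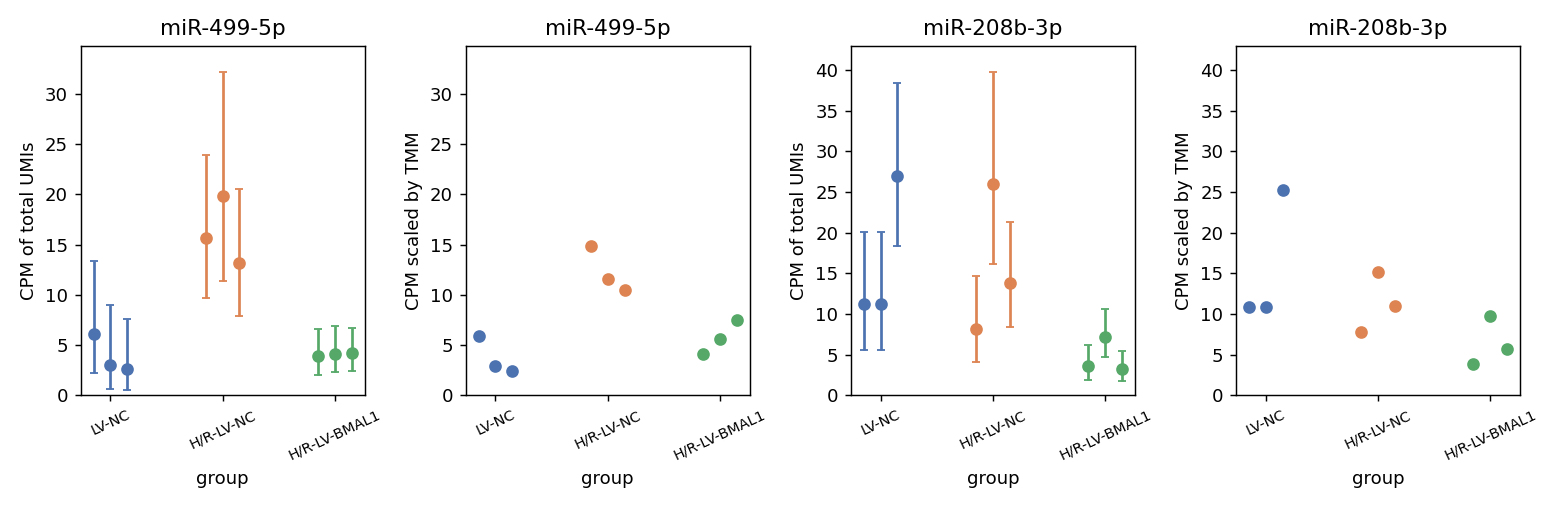
miR-499-5p and miR-208b-3p in each library, as CPM of total UMIs with 95% exact binomial intervals and as CPM scaled by TMM. miR-499-5p is at 13.1 to 19.8 CPM under H/R with the control virus and at 2.61 to 6.12 CPM in the other groups; on total UMIs miR-208b-3p is lowest in H/R-LV-BMAL1 (3.20 to 7.21 CPM).

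The listed positions of miR-1a-3p and miR-1b-5p lie on opposite strands of the same stretch of chromosome 18, from 10785485 to 10785506 on the minus strand (Mir1a-2) and from 10785486 to 10785506 on the plus strand (Mir1b), and the sources used here do not give whether the counting used the strand. Both hairpins lie in an intron of the protein-coding gene Mib1, Mir1b on its strand. A second hairpin on chromosome 2, Mir1a-1, is known to give the same miR-1a-3p. miR-1a-3p, the main miR-1 of heart and skeletal muscle, was low in most libraries, with 2, 2 and 1 UMIs (LV-NC), 0, 4 and 17 (H/R-LV-NC) and 9, 4 and 39 (H/R-LV-BMAL1). The 0 UMIs in H/R-LV-NC 1 allow a level of up to 2.23 CPM (3 UMIs). The libraries H/R-LV-NC 3 (11.7 CPM) and H/R-LV-BMAL1 3 (9.61 CPM) were highest, and none of the other 7 exceeded 4.96. In H/R-LV-BMAL1 3 it lay above 54.7% of the listed miRNAs. On the TMM scale H/R-LV-BMAL1 3 held 44.6% of its summed level. miR-1a-3p did not pass the filter on low counts. With no filter its log2 fold changes were 1.44 after H/R, 0.65 in the BMAL1 comparison and 2.08 for BMAL1 under H/R against LV-NC, with adjusted p of 0.800, 0.713 and 0.368 from edgeR. miR-1b-5p was the third most abundant of the 10, with 24, 24 and 17 UMIs (LV-NC), 51, 68 and 28 (H/R-LV-NC) and 33, 65 and 39 (H/R-LV-BMAL1). In CPM, it was at 14.8 to 24.6, 19.3 to 84.2 and 9.61 to 18.0, with the H/R groups apart. The highest H/R-LV-BMAL1 value and the lowest H/R-LV-NC value differed by less than their counting error (95% exact binomial intervals 13.9 to 23.0 and 12.9 to 28.0 CPM). With TMM its values in the H/R groups overlapped. Its log2 fold change in the BMAL1 comparison was -0.94 with TMM (95% interval -1.95 to 0.07, adjusted p = 0.207 from edgeR) and -1.90 with total UMIs (adjusted p = 0.0311 from edgeR). It was -0.59 with TMM without H/R-LV-NC 2, which held its highest level. After H/R the value was 0.71 with TMM (95% interval -0.33 to 1.75, adjusted p = 0.715 from edgeR), and 0.34 without H/R-LV-NC 2.

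The arms of the hairpins differed in how one-sided they were. In Mir206 the 3p arm gave 51168 UMIs over the 9 libraries and the 5p arm gave 80. That is a share of 99.8% (95% exact binomial interval of the pooled UMIs 99.8% to 99.9%), with 99.6% to 99.9% in single libraries. Such pooled intervals leave out the spread between libraries. In Mir122 the 5p arm gave 1820 UMIs and miR-122-3p gave 42, with 2 to 8 UMIs of miR-122-3p in a library, too few to pass the filter. In Mir133b, Mir133a, Mir208b and Mir499 the listed arm took 66.4%, 65.7%, 63.4% and 64.2% of the UMIs, and the other arm was higher in 1 to 3 of the 9 libraries. Mir208a ran the other way: miR-208a-5p exceeded miR-208a-3p in 9 of 9 libraries. Of the pooled UMIs, miR-208a-3p took 27.4% (95% exact binomial interval 23.7% to 31.4%), with 11.9% to 41.8% in single libraries. miR-208a-5p had 35, 13 and 37 UMIs (LV-NC), 40, 74 and 26 (H/R-LV-NC) and 56, 59 and 46 (H/R-LV-BMAL1). In Mir1b, miR-1b-5p exceeded miR-1b-3p in 9 of 9 libraries, with 83.5% of the UMIs.

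**Figure D4:**
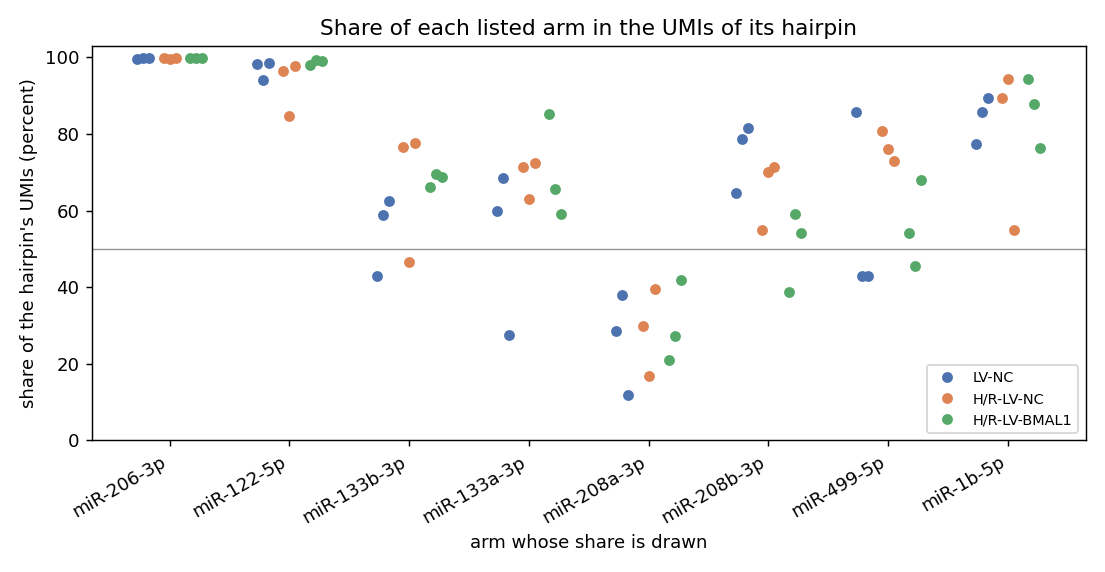
Share of the hairpin's UMIs (percent) that came from the arm named on the x axis, with 1 point for each library; the line marks equal arms. miR-206-3p takes 99.6% to 99.9% and miR-122-5p 84.6% to 99.2%, and miR-208a-3p is below the line in every library (11.9% to 41.8%).

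Of the 10 miRNAs, 8 passed the filter on low counts, as did 3 of the 9 other arms of their hairpins (miR-133a-5p, miR-206-5p and miR-208a-5p). With edgeR's quasi-likelihood test and TMM, 0 of the 8 and 0 of the 3 were called at an adjusted p under 0.05 in each of the 3 comparisons. limma-voom also called 0 in each, as did DESeq2, which gave no adjusted p for 8 of the 24 combinations of miRNA and comparison. At an unadjusted p under 0.05 from edgeR, the count was 1 of 8 after H/R (miR-499-5p), 2 in the BMAL1 comparison (miR-206-3p and miR-499-5p) and 2 for BMAL1 under H/R against LV-NC (miR-206-3p and miR-208b-3p). Of all 1682 miRNAs tested, 7.19%, 27.8% and 23.4% had such a p in these 3 comparisons, so 2 of 8 was near the share of all miRNAs. By the adjusted p from edgeR with TMM, 0%, 2.38% and 0.238% of all were called. With total UMIs 3 of the 8 were called in the BMAL1 comparison, all lower (miR-1b-5p, miR-208b-3p and miR-499-5p), beside 30.9% of all miRNAs tested. In the other 2 comparisons, total UMIs gave 0 of 8, beside 0.0595% of all miRNAs after H/R and 6.24% for BMAL1 under H/R against LV-NC.

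The groups did not overlap in CPM for 3 of the 8 after H/R (15.6% of all tested miRNAs), for 5 in the BMAL1 comparison (49% of all) and for 3 in BMAL1 under H/R against LV-NC (36% of all). The median log2 fold change of the 8 after H/R was 0.40 with TMM and 0.69 with total UMIs, beside 0.01 and 0.36 for all miRNAs tested. The corresponding medians of the BMAL1 comparison were -0.18 and -1.02, beside -0.04 and -0.87 for all. BMAL1 under H/R against LV-NC gave 0.27 and -0.26, beside 0.02 and -0.47 for all. The 3 called with total UMIs thus fell in a comparison where the median of all miRNAs also fell by 0.87 on the log2 scale.

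**Figure D5:**
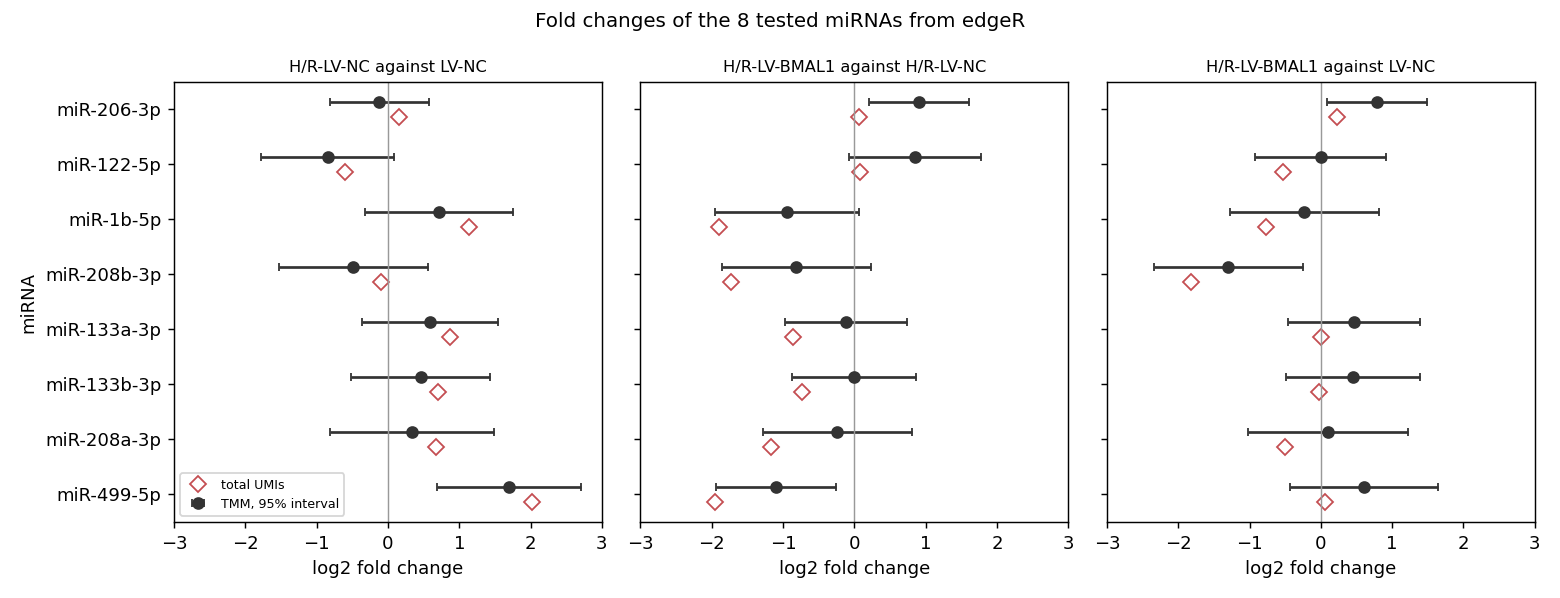
Log2 fold changes of the 8 tested miRNAs in the 3 comparisons, from edgeR with TMM (dots with 95% intervals) and with total UMIs (open diamonds). In the BMAL1 comparison every diamond lies to the left of its dot, and miR-206-3p moves from 0.91 to 0.07.

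The pattern of miR-206-3p over the 9 libraries was most like that of miR-199b-3p, miR-199a-3p and let-7e-5p among 702 other miRNAs with a mean of at least 50 UMIs, with Pearson r of 0.990, 0.989 and 0.984 on log2 CPM scaled by TMM. miR-199a-3p and miR-199b-3p are known to have the same mature sequence and do not count as separate cases. On total UMIs the 3 had r of 0.854, 0.847 and 0.776, and 2 stayed among the nearest 3, but by Spearman correlation 0 did. For miR-122-5p the nearest were miR-877-3p, miR-6418-5p and miR-6942-5p, with r of 0.949, 0.939 and 0.932, or 0.531, 0.749 and 0.732 on total UMIs, where 0 of the 3 stayed among the nearest 3. By Spearman correlation 1 of the 3 stayed. The points share the scaling factor of their library, and over all 702 the median r was 0.17 for miR-206-3p and 0.18 for miR-122-5p with TMM.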

How the data were processed

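The 9 exosome libraries were made with the QIAseq miRNA kit, which tags molecules with UMIs. The deposited table lists 1978 mature miRNAs with their UMI count and, made by the authors from it, the CPM on total UMIs. Tools listed in the submitters' processing notes, without their roles, are Bowtie 1.3.0, edgeR and cutadapt 2.7. No source used here names a genome build. The deposited positions equal those of RefSeq on GRCm38.p6 for all 11 sequences matched (5 of the 10 miRNAs and 6 of the 9 other arms). All count columns matched a sample's labels, and 0 were left unused.

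From the counts, edgeR 4.0.16 in R 4.3.3 kept 1682 miRNAs by filterByExpr and removed 296. They were scaled by TMM and tested by the quasi-likelihood test in 1 fit of all 9 libraries, with Benjamini-Hochberg adjustment over all 1682. Replicate libraries differed by more than sampling noise in each of the groups (chi-square per degree of freedom 12.0 to 169). Exact permutation tests compared the UMI ratio. Alternatives were DESeq2 1.42.0, limma-voom (limma 3.58.1), RLE, upper quartile and total-UMI scaling, other filters, only the 2 groups compared, a replicate block, and each library left out. The fit was tested on simulated counts. Likeness used log2 values with a prior count of 2. The text names the 10 miRNAs, the other arms of their hairpins, and the 3 miRNAs most like miR-206-3p and miR-122-5p. Members and lists were chosen with earlier results of these data known. The exact binomial intervals and the limit of 3 UMIs cover counting error only. Intervals of log2 fold changes come from the edgeR fit and rest on the spread between libraries.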

Additional observations from a re-analysis of the deposited data

How the results depend on the processing

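The count of called miRNAs among the 10 was 0 in each comparison under every alternative run, except 3 in the BMAL1 comparison with total UMIs. Over all miRNAs that comparison had 40 calls with TMM, 152 with DESeq2, 519 with total UMIs, 72 at a mean of at least 50 UMIs, 58 with limma-voom and 139 without H/R-LV-BMAL1 1, but 0 with RLE or upper quartile factors, no filter, only the 2 groups, the replicate block or any other library left out. BMAL1 under H/R against LV-NC had 4 with TMM, 83 with DESeq2, 105 with total UMIs, 10 at a mean of at least 50 UMIs, 2 with upper quartile factors or no filter and 1 with only the 2 groups, and 0 to 66 with a library left out. After H/R the count was 0 with TMM and 1 with total UMIs or without H/R-LV-NC 2. The cause of these differences was not tested.

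Directions changed for small log2 values. With total UMIs, miR-206-3p after H/R was at 0.16 (0.15 as a difference of mean log2 levels), and in BMAL1 under H/R against LV-NC miR-133b-3p was at -0.026, miR-208a-3p at -0.50 and the mean log2 level of miR-122-5p at -0.50. In the BMAL1 comparison miR-133b-3p was at 0.058 with DESeq2, 0.046 with RLE factors, 0.10 with limma-voom and 0.022 with the replicate block. In BMAL1 under H/R against LV-NC miR-122-5p was at 0.025 with DESeq2, 0.014 with RLE factors, 0.013 with limma-voom and 0.050 with the replicate block. The replicate block changed no call among the 10. Replicate numbers gave correlations of -0.15 to 0.13 between same-numbered libraries, so they were not taken as pairs.

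With 1 library left out, the log2 values after H/R ran from -0.32 to 0.15 for miR-206-3p, -0.033 to 0.84 for miR-208a-3p and -0.71 to 0.045 for miR-208b-3p. In the BMAL1 comparison they ran from -0.35 to 0.19 for miR-133a-3p, -0.36 to 0.37 for miR-133b-3p, -0.76 to 0.078 for miR-208a-3p and -0.20 to 0.15 for the ratio of miR-206-3p to miR-122-5p. In BMAL1 under H/R against LV-NC they ran from -0.13 to 0.18 for miR-122-5p, -0.60 to 0.025 for miR-1b-5p and -0.44 to 0.56 for miR-208a-3p. A mean count under 50 UMIs limits 8 of the 10 miRNAs.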
